A study of Mus musculus with 6 samples.

Results

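The endoplasmic reticulum (ER) unfolded protein response was examined through 10 genes chosen by symbol: the sensors Ern1 and Atf6, the transcription factor Xbp1, the chaperones Hspa5, Hsp90b1, Calr and Sdf2l1, the chaperone partner Dnajb9, the disulfide isomerase Pdia4 and the ER membrane protein Herpud1. They are 10 of the 31017 genes in the table of counts, and all 10 passed the filter on low counts that left 14268 genes to test. RNA came from mouse Th17 cells, helper T cells that make interleukin 17, differentiated in culture from wild-type (WT, called control) or RTF1-deficient (KO) cells, with 3 libraries of each. RTF1 is a nuclear protein that travels with RNA polymerase II and promotes ubiquitination of histone H2B, and the study asked what its loss does in these cells. How the deletion was made, in which cells it acted, the age of the mice and the culture conditions are not given in the sources used here. No label says whether the libraries of a group came from separate animals, so p-values measure only the spread between these libraries, part of which may be technical.

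The ER folds the proteins that a cell secretes or places in its membranes. When unfolded proteins build up there, the sensors IRE1 (encoded by Ern1), ATF6 and PERK signal to the nucleus. IRE1 cuts an intron out of the Xbp1 mRNA so that it encodes an active factor, ATF6 moves to the Golgi and is cleaved into a transcription factor, and PERK slows translation and favours ATF4. XBP1 and cleaved ATF6 raise the genes for chaperones, disulfide enzymes and the machinery that returns misfolded proteins to the cytosol for degradation. In lymphocytes this programme is best known from antibody-secreting plasma cells, and activated T cells that secrete cytokines use it as well. Counts per gene do not tell spliced from unspliced Xbp1 mRNA, nor cleaved from whole ATF6, so the activity of neither sensor was measured.

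Total counts ranged from 16489813 to 51271226 per library, and the lowest count of any member in any library was 224. Rtf1 itself held 88.3 to 94.0 CPM (counts scaled to a common library total with TMM factors) in control and 26.2 to 45.3 in KO, so all 3 libraries labelled KO lay below all controls. Replicate 3 of each group stood apart in Y-linked counts, with 11376 in control and 5147 in KO over 4 genes against 1 to 3 in the other libraries, so it came at least in part from other animals than replicates 1 and 2. All 5 calls among the members were also made with replicates 1 and 2 alone. The T cell markers were abundant in both groups but not at equal levels: of 7, Cd3g (log2 fold change 0.72) and Cd3e (0.71) were called higher in KO, and Cd4 (-0.94, from 486 ± 48.6 to 254 ± 36.0 CPM, SD, n = 3) and Lck (-0.60) were called lower by edgeR. Of 5 Th17 markers 4 were called lower, namely Il17a (-1.65), Il23r (-1.35), Il17f (-1.28) and Ccr6 (-1.15). Markers of B and plasma cells, which run a strong unfolded protein response, summed over 8 genes to 8.41 to 12.6 CPM in control and 13.9 to 25.4 in KO. Of these 8, Pou2af1 (5.30 ± 2.86 and 10.8 ± 5.76 CPM) and Sdc1 (3.79 ± 0.437 and 5.26 ± 0.967; SD, n = 3) held most of the sum and were not called, 1 gene was called lower (Cd79b), and Ms4a1, Jchain and Mzb1 had at most 5 counts in any library. Myeloid markers (6 genes) summed to 1.16 to 1.5 CPM in control and 2.11 to 3.87 in KO. Of the 3 that were tested, Csf1r was called higher (1.72, edgeR adjusted p = 0.0256, means of 0.361 and 1.18 CPM) and 2 were not called. Lyz2, which was not tested, had 0, 2 and 4 counts in control and 46, 11 and 8 in KO. The 4 markers of CD8 and natural killer cells summed to 6.87 to 10.5 CPM in control libraries and 5.39 to 9.61 in KO libraries. Most of that sum was Cd8b1, with a control mean of 7.91 CPM and a KO mean of 6.42. Cd8a was also detected, with means of 0.449 and 0.773 CPM, and edgeR called neither gene. The natural killer markers Ncr1 and Klrb1c were at 0. The part of these differences in the results on the members was not tested. In bulk RNA, fewer cells of a type and less RNA per cell cannot be told apart.

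Of the 10 members, 4 fell in KO (Pdia4, Hsp90b1, Herpud1 and Sdf2l1), 1 rose (Dnajb9) and 5 were not called (Xbp1, Ern1, Atf6, Hspa5 and Calr) at an adjusted p-value under 0.05 in the edgeR quasi-likelihood test. Of all genes tested, 46.1% were called, 22.9% lower and 23.2% higher, so 5 calls among 10 members is near the background. For 6 of the 10 members no KO library overlapped the control libraries in CPM, against 57.9% of all tested genes. The median log2 fold change of the members was -0.22, and that of all tested genes was 0.013. On the log2 scale the members ran from -0.89 for Pdia4 to 1.07 for Dnajb9, and 3 of the 10 were positive. Dnajb9 alone was called higher, so the mixed direction of the member calls rests on 1 gene. These sizes were not extreme: of 14268 genes, Dnajb9 ranked 1736 by increase and Pdia4 2037 by decrease. Regardless of sign, the median size of change over the tested genes was 0.53.

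**Figure D1:**
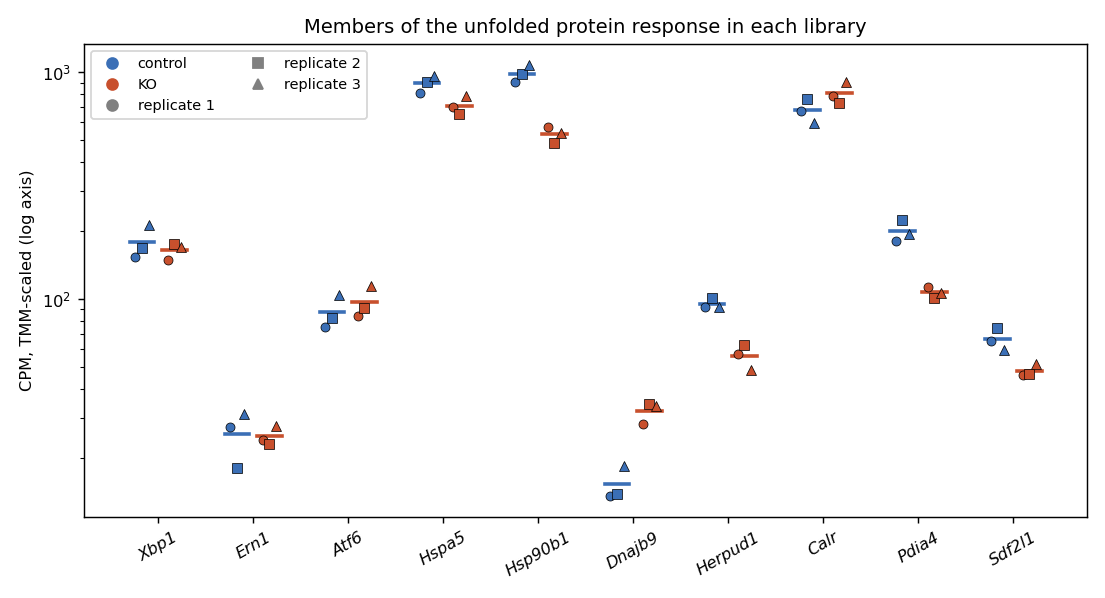
TMM-scaled CPM (log axis) of the 10 members in each of the 6 libraries. Blue marks control and red KO, the marker shape gives the replicate number, and each bar is the mean of 3 libraries. The groups do not overlap for Hspa5, Hsp90b1, Dnajb9, Herpud1, Pdia4 and Sdf2l1.

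The sensors and XBP1 come first in the pathway, and their mRNA levels were not called different between the groups. Xbp1 (chr11:5520659-5525893, GRCm38, the build of all positions given) held 153, 168 and 211 CPM in the control libraries, in the order of their replicate numbers, and 148, 176 and 170 CPM in the KO libraries in the same order, which is kept for all values listed by library. The KO libraries lay within or just below the control range, and the highest library was control replicate 3. Xbp1 had a log2 fold change of -0.11 with an unadjusted 95% interval from -0.44 to 0.22 (edgeR adjusted p = 0.559). Ern1 (chr11:106394650-106487852), which encodes the IRE1 kinase and RNase that splices Xbp1 mRNA, held 27.3, 18.0 and 31.2 CPM in control and 23.9, 23.0 and 27.6 CPM in KO. All KO values of Ern1 fell inside the control range. Its log2 fold change was -0.04 (interval -0.50 to 0.42, edgeR adjusted p = 0.888), and the sign turned when only library size was used for scaling (0.04). Atf6 (chr1:170704674-170867771), whose protein is both the ER sensor and the transcription factor cut from it, held 75.3, 82.7 and 104 CPM in control and 84.6, 91.5 and 115 CPM in KO. The groups overlapped, and replicate 3 was the highest library of each group. The log2 fold change of Atf6 was 0.15 (interval -0.21 to 0.51, edgeR adjusted p = 0.469). These intervals still allow changes of the sizes just given, so equal levels were not shown.

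Hspa5 and Hsp90b1 encode the most abundant folding ATPases of the ER: BiP, an HSP70 that also holds the 3 sensors inactive, and GRP94, an HSP90 that matures integrins and Toll-like receptors. Hspa5 (chr2:34771970-34777547) held 812, 901 and 965 CPM in control and 699, 651 and 787 CPM in KO. Each KO library lay below each control, but the gap from 812 to 787 CPM was small. Its fold change on the log2 scale was -0.33 (SE 0.132, interval -0.63 to -0.03), which was not called without a replicate block (edgeR adjusted p = 0.0709). With the replicate number as a block, edgeR gave an adjusted p of 0.0345, and the DESeq2 Wald test gave an adjusted p of 0.0483, so the call for Hspa5 depends on the test.

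Hsp90b1 (chr10:86690209-86705509) fell clearly. It held 902, 985 and 1070 CPM in control and 572, 488 and 540 CPM in KO. No KO library came near the control range, and the KO mean was 54.1% of the control mean. On the log2 scale Hsp90b1 changed by -0.89 (SE 0.129, edgeR adjusted p = 0.00104), and it was called in each of the 14 alternative fits. Annotated exons of other genes cover 15.7% of the exonic bases of Hsp90b1. The counting settings are not given in full, so reads from this overlap may have been lost or credited to the wrong gene.

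The other genes of the folding machinery among the members split as well. Pdia4, a protein disulfide isomerase of the BiP chaperone complex (chr6:47796141-47813430), held 180, 222 and 194 CPM in control and 113, 101 and 107 CPM in KO. The KO libraries were tightly grouped at 107 ± 6.02 CPM (SD, n = 3), 53.9% of the control mean of 199 ± 21.7. Its change of -0.89 on the log2 scale (SE 0.119, edgeR adjusted p = 0.00073) was called in every one of the 14 alternative fits. Sdf2l1, which keeps BiP substrates soluble together with J-domain proteins (chr16:17130138-17132383), held 65.2, 74.6 and 59.7 CPM in control and 46.4, 46.8 and 51.9 CPM in KO. All KO values were below all control values, with 72.8% of the control mean remaining. Its change on the log2 scale was -0.46 (SE 0.123, edgeR adjusted p = 0.0151), a call lost without KO replicate 2 (-0.43, adjusted p = 0.0667).

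Calr, the calcium-binding lectin chaperone calreticulin (chr8:84841850-84846934), did not follow them. It held 673, 765 and 600 CPM in control and 787, 732 and 904 CPM in KO. The groups overlapped, since KO replicate 2 lay below control replicate 2, and the highest library was KO replicate 3. The log2 fold change of Calr was 0.25 (interval -0.07 to 0.57, edgeR adjusted p = 0.18) and it was called in 0 of the 14 alternative fits.

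Dnajb9 was the member that rose. It encodes ERdj4, a J-domain protein that recruits BiP to IRE1 and so restrains it, and that also delivers misfolded proteins to degradation; it is a well-known target of spliced XBP1. Dnajb9 (chr12:44205559-44210326) held 13.6, 13.8 and 18.3 CPM in control and 28.1, 34.5 and 33.9 CPM in KO. The lowest KO library stood well above the highest control, and the KO mean was 2.11 times the control mean. The increase was 1.07 on the log2 scale (SE 0.166, edgeR adjusted p = 0.00137) and lay between 0.94 and 1.19 in the 14 alternative fits, each of which called it. Of its 50-base stretches, 5.5% also occur in other transcripts, mainly of Gm6568.

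Herpud1, by contrast, fell. It encodes HERP, a membrane protein that helps assemble the HRD1 complex of ER-associated degradation. Herpud1 (chr8:94386438-94395377) held 92.0, 101 and 92.4 CPM in control and 57.1, 62.9 and 48.7 CPM in KO. The groups were far apart and the control libraries were close together (95.2 ± 5.20 CPM, SD, n = 3). The log2 fold change was -0.76 (SE 0.124, edgeR adjusted p = 0.00173), and each of the 14 alternative fits called it. Dnajb9 and Herpud1, both responsive to ER stress in other cells, therefore moved in opposite directions in the same libraries.

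**Figure D2:**
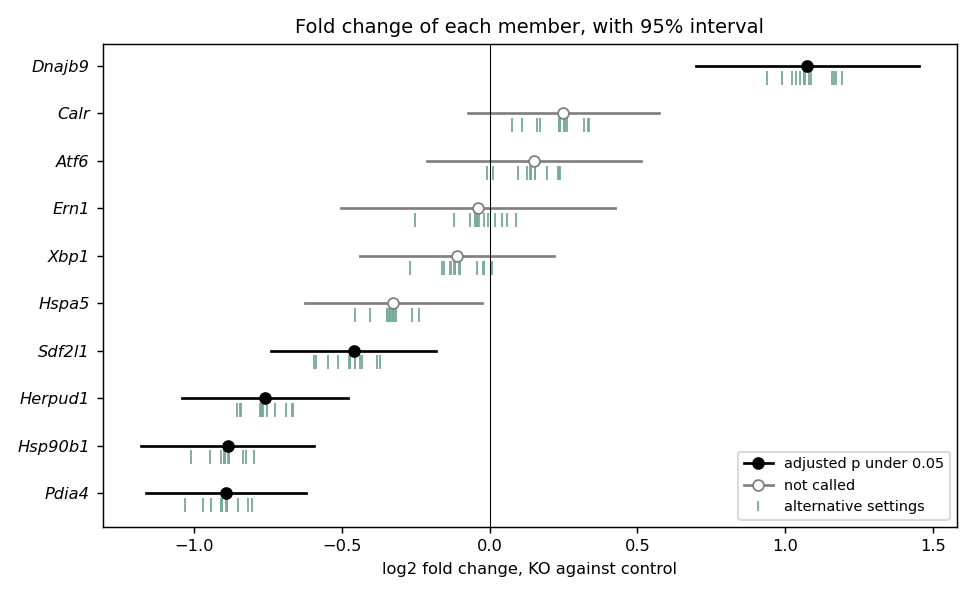
Log2 fold change of each member, KO against control, with its unadjusted 95% interval. Filled black points have an edgeR adjusted p-value under 0.05, open grey points do not, and the green ticks below each point are the 14 alternative settings. Dnajb9 stands at 1.07, and Pdia4, Hsp90b1, Herpud1 and Sdf2l1 stand between -0.89 and -0.46.

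Levels were compared between genes as CPM per kilobase of exon. In control, Hsp90b1 (244 ± 20.8), Calr (236 ± 28.8) and Hspa5 (211 ± 18.1) were the highest (SD, n = 3). Calr lay within its spread of both, while Hsp90b1 was above Hspa5 in each control library. Pdia4 followed at 82.8 ± 9.03, then Sdf2l1 at 60.0 ± 6.81 and Xbp1 at 54.7 ± 9.33, which also did not differ beyond their spread, and Herpud1 at 40.8 ± 2.23. Atf6 (9.45 ± 1.60), Dnajb9 (5.98 ± 1.05) and Ern1 (3.12 ± 0.828) were the lowest. In KO the order at the top changed: Calr held 280 ± 30.4 CPM per kilobase, Hspa5 168 ± 16.4 and Hsp90b1 132 ± 10.5. Dnajb9 (12.6 ± 1.38) and Atf6 (10.5 ± 1.71) exchanged places in KO, with a gap about as large as their spread.

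Ratios of counts within a library do not depend on how libraries are scaled, and 9 such ratios, picked after the values were seen, were computed. For every 100 counts of Hsp90b1, Calr had 74.5, 77.7 and 56.0 counts in the control libraries and 138, 150 and 167 in the KO libraries. The ratio was higher in every KO library than in any control (p = 0.1 in a two-sided exact permutation test, the lowest that 3 libraries against 3 allow). Dnajb9 counts per 100 counts of Herpud1 went from 16.1 ± 3.30 to 57.9 ± 10.5 (SD, n = 3). Dnajb9 was higher and Herpud1 lower in every KO library, so this ratio had to separate the groups and gives no test. Since all pairs were picked from the same values, the permutation p-values of these ratios are descriptions only. Hsp90b1 had 111, 109 and 111 counts per 100 counts of Hspa5 in control, against 81.9, 75.0 and 68.6 in KO, so the ratio was nearly constant in control and lower in each KO library. Xbp1 had 203, 203 and 204 counts per 100 counts of Atf6 in control, against 175, 192 and 148 in KO. The ratio of Sdf2l1 to Hspa5 overlapped between the groups, with 7.49 ± 1.14 counts per 100 in control libraries and 6.81 ± 0.330 in KO (n = 3 each, exact permutation p = 0.4). Together the 10 members took 0.312% ± 0.0126 of all counts in the control libraries (SD, n = 3) and 0.266% ± 0.0165 in KO. This share mostly follows the most abundant members and does not describe each of them. From control to KO, mean CPM went from 986 to 534 for Hsp90b1. It went from 893 to 712 for Hspa5 and from 679 to 808 for Calr, neither of them called.

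The promoters of the members were searched for the ER stress elements through which the response acts. ERSE is a CCAAT box, bound by NF-Y, placed 9 bases before CCACG, which binds ATF6, and was searched as CCAAT, any 9 bases and CCACG. ERSE-II was searched as ATTGG, any 1 base and CCACG, and the UPRE as TGACGTGG, each on both strands. RefSeq promoter windows (GRCm38.p6, 250 bases before to 50 after the start) were found for 9 of the 10 members, all but Atf6. The windows that hold a match upstream of the RefSeq start are given here because members that carry such an element differed in whether they were called. The fixed letters of each match are in capitals, a mismatched base included, and lower case is the sequence between and around them, read 5′ to 3′ on the gene's strand. The Hspa5 stretch lies before the RefSeq start but inside the longer GENCODE gene model.
Hspa5, chr2:34772010-34772058, plus strand, 1 ERSE: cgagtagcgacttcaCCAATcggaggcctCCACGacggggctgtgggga
Hsp90b1, chr10:86705518-86705671, minus strand, ERSE at both ends and a match with 1 mismatch between them: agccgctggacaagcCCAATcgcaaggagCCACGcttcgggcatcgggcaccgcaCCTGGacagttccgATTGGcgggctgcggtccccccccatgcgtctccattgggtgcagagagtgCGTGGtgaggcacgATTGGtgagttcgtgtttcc
Calr, chr8:84847060-84847108, minus strand, 1 ERSE in reverse: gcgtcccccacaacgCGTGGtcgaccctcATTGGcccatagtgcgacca
Pdia4, chr6:47813587-47813635, minus strand, 1 ERSE in reverse with 1 mismatch: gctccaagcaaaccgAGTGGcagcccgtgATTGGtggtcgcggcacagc
Herpud1, chr8:94386362-94386402, plus strand, 1 ERSE-II: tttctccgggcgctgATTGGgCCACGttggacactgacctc

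An exact ERSE was present in the windows of 3 of these 9 members, against 39 of 32851 windows of all genes (0.119%). The elements and the members were both chosen as known parts of this response. The contrast of the members with all windows is therefore no independent test of enrichment, for any of the elements. The matches lay at -65 to -47 from the start in Hspa5, at -162 to -144 in Calr, and at -212 to -194 and -107 to -89 in Hsp90b1. Of these 3 genes Hsp90b1 fell, Hspa5 was lower but not called and Calr was higher but not called. ERSE-II was found only in Herpud1 among the members, at -52 to -42, and in 0.0365% of all windows, while the UPRE was in 0 of the 9 windows and 0.676% of all. Allowing 1 mismatch in the 10 fixed bases, a setting chosen after the sequences were seen, 5 of the 9 windows held an ERSE, against 1.5% of all windows. Dnajb9, Sdf2l1, Xbp1 and Ern1 had no match of any of these kinds, which says only that these letters are not in the window. The Dnajb9 window (chr12:44210019-44210318, minus strand) lies wholly inside the longer GENCODE gene model, so the bases before the GENCODE start of Dnajb9 were not searched. Across all genes, 49 carried an exact ERSE or ERSE-II, and 29 of them were tested: 10 fell, 6 rose and 13 were not called (edgeR). Their called share was 55.2%, beside 46.1% of all tested genes, of which 22.9% were lower and 23.2% higher. The 29 include the members Calr, Herpud1, Hsp90b1 and Hspa5 and genes of the lists described below, such as Pdia6 and Syvn1. This count is therefore not separate from the results on those genes. Their median log2 fold change was -0.31. A match is a description of sequence and was not tested as a binding site.

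**Figure D3:**
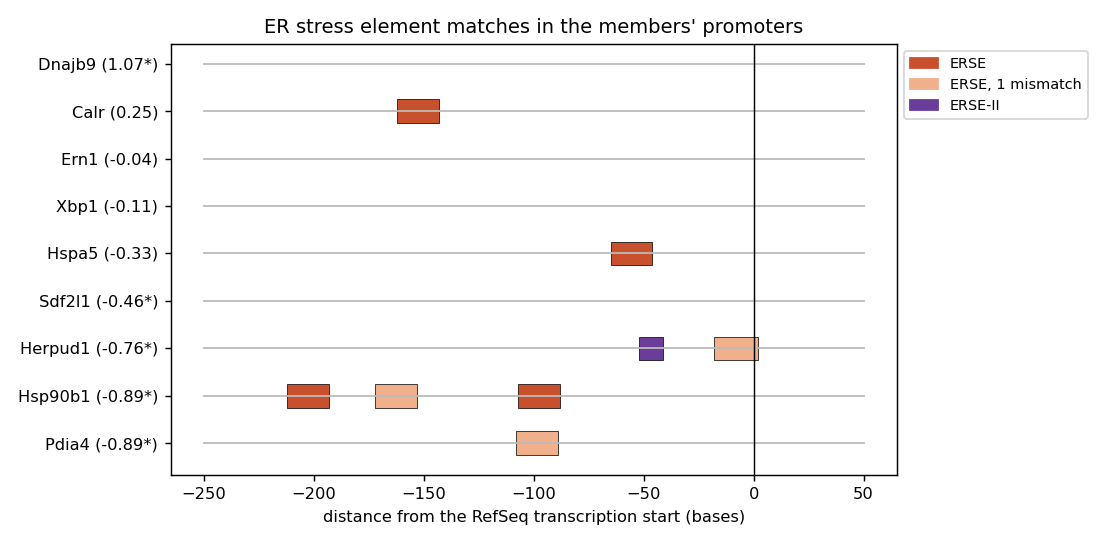
Positions of ERSE, ERSE-II and 1-mismatch ERSE matches in the windows of 9 members, in bases from the RefSeq transcription start. Genes are ordered by log2 fold change, given in brackets with an asterisk where the edgeR adjusted p-value is under 0.05. Exact ERSE matches stand in Calr (0.25, not called), Hspa5 (-0.33, not called) and Hsp90b1 (-0.89, called).

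The rest of the pathway was followed in lists that hold none of the members. Among 17 ER chaperones and folding enzymes 9 fell, 3 rose and 5 were not called (edgeR adjusted p under 0.05), beside 22.9% lower and 23.2% higher among all tested genes, with a median log2 fold change of -0.48. The largest falls at a mean of at least 10 CPM were those of Ero1l, the oxidase that recharges disulfide isomerases, Fkbp2, a prolyl isomerase, and the disulfide isomerases Pdia6 and P4hb. Ero1l held 668, 658 and 1275 CPM in control and 164, 158 and 163 CPM in KO (log2 fold change -2.42, SE 0.256, edgeR adjusted p = 0.000288). Control replicate 3 held far more than the other controls, and the KO libraries lay close together below all of them. Pdia6 fell from 340 ± 28.2 to 150 ± 16 CPM (-1.18, adjusted p = 0.000325), P4hb from 879 ± 63.4 to 449 ± 18.2 CPM (-0.97, adjusted p = 0.00053) and Fkbp2 from 29.8 ± 2.78 to 10.2 ± 1.99 CPM (-1.54, adjusted p = 0.000384; SD, n = 3, edgeR).

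The genes that rose in this list were Dnajb11, Pdia3 and Ppib. Dnajb11 (ERdj3), a J-domain partner of BiP, held 96.7, 110 and 76.1 CPM in control and 138, 137 and 162 CPM in KO (log2 fold change 0.62, edgeR adjusted p = 0.01). Pdia3, the disulfide isomerase that works with calreticulin and calnexin, held 421, 549 and 404 CPM in control and 620, 699 and 668 CPM in KO (0.53, adjusted p = 0.0172). Both genes were higher in every KO library than in any control. Ppib, a prolyl isomerase, had a log2 fold change of 0.39 (edgeR adjusted p = 0.0271), but 25% of its exonic bases overlap Snx22. The number that rose was the less stable one: it was 0 without control replicate 1 and 1 without control replicate 3, KO replicate 2 or KO replicate 3.

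Members and list genes of the folding machinery were also put together by biochemical role, a grouping made after the values were seen. The counts in these groups are therefore descriptions only, and of all tested genes 22.9% were called lower and 23.2% higher. Of 8 oxidases and isomerases of disulfide bonds (Ero1l, Ero1lb, P4hb, Pdia3, Pdia4, Pdia6, Txndc5 and Dnajc10), 6 fell, Pdia3 rose and Dnajc10 was not called, with a median log2 fold change of -0.86. Of the 4 genes of the lectin cycle, which folds glycoproteins, Pdia3 rose and Calr, Canx (-0.15) and Uggt1 (-0.20) were not called. Among 5 J-domain proteins of the ER, Dnajb9 and Dnajb11 rose, and Dnajc3 (0.28), Dnajc10 (-0.28) and Sec63 (0.00) were not called. With the replicate block Dnajc3 and Dnajc10 were called in their opposite directions (edgeR adjusted p = 0.0482 and 0.0425). Hyou1, the exchange factor and HSP110 of the ER, fell from 292 ± 11.2 to 191 ± 18.3 CPM (SD, n = 3; -0.61, edgeR adjusted p = 0.00324), as did Hsp90b1.

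The machinery of ER-associated degradation, which pulls misfolded proteins back into the cytosol, was followed in 16 genes beside the member Herpud1, which fell. Of these 16, 8 rose and 8 were not called (edgeR). The called share is near the 46.1% of all tested genes in either direction. By direction, 23.2% of all tested genes were called higher and 22.9% lower, whereas all 8 calls in this list were higher. Of the 16, 0 were lower at an unadjusted p under 0.05 or in the DESeq2 test, and the median log2 fold change was 0.28. Os9, a lectin that picks out substrates, held 77.5, 85.2 and 96.5 CPM in control and 167, 201 and 267 CPM in KO (1.29, SE 0.178, edgeR adjusted p = 0.000824). Syvn1, the ubiquitin ligase HRD1, held 43.4, 40.0 and 44.2 CPM in control and 75.3, 80.4 and 92.5 CPM in KO (0.96, adjusted p = 0.000553). In both genes all KO libraries lay well above all controls. Herpud2, the paralogue of Herpud1, rose from 35.9 ± 1.76 to 62.5 ± 4.28 CPM (SD, n = 3; 0.80, edgeR adjusted p = 0.00095), whereas Herpud1 fell by 0.76 on the log2 scale. Edem2, Derl2, Erlec1 and Ube2j1 rose too, with log2 fold changes from 0.39 to 0.79. Sel1l (0.20, adjusted p = 0.255) and Vcp (-0.03, adjusted p = 0.864), the scaffold and the ATPase of the same route, were not called, and 40.5% of the 50-base stretches of Vcp occur in other transcripts. Without control replicate 1 or without KO replicate 2 the number that rose was 5.

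**Figure D4:**
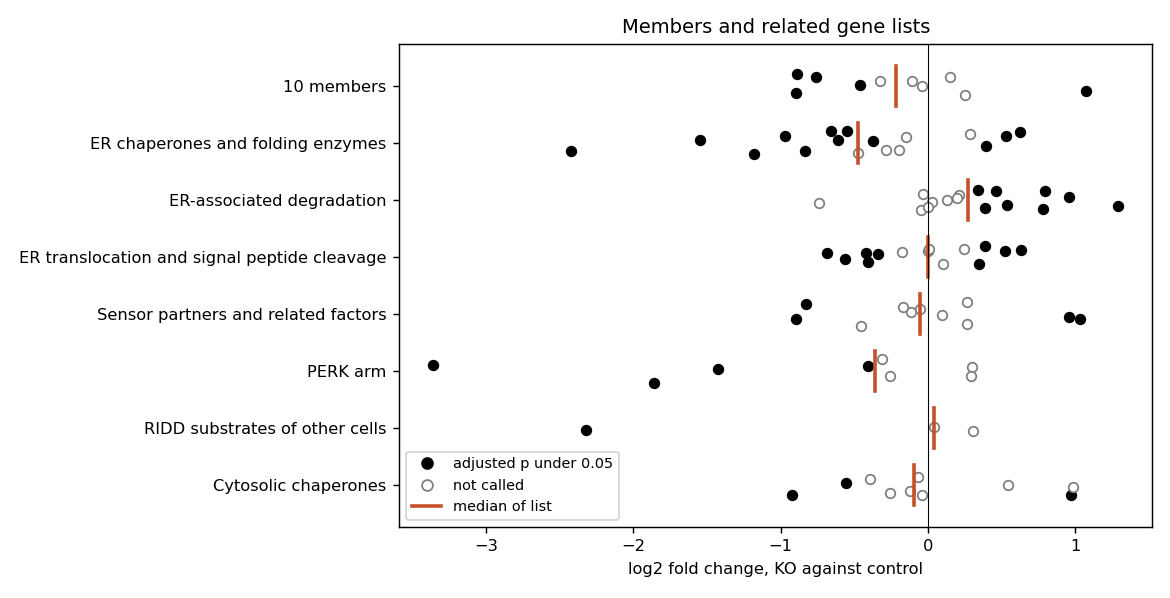
Log2 fold change, KO against control, of the tested genes in the member set and in 7 related lists. Filled points have an edgeR adjusted p-value under 0.05, open points do not, and the red line is the median of the list. The median is -0.48 for ER chaperones and folding enzymes and 0.28 for ER-associated degradation.

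Genes for entry into the ER went both ways. Of 14 genes of translocation and signal peptide cleavage 5 fell and 4 rose (edgeR), beside 22.9% lower and 23.2% higher among all tested genes. The median log2 fold change of the list was 0.0046. Spcs3, a signal peptidase subunit (-0.68, adjusted p = 0.0026), and Ssr3 of the translocon-associated complex (-0.56, adjusted p = 0.0139) fell, while Ssr4 of the same complex (0.63, adjusted p = 0.00417) and Sec62 (0.53, adjusted p = 0.00534) rose. The number that fell was 1 without KO replicate 3 and 2 without KO replicate 2. The number that rose was 2 without control replicate 1, control replicate 3 or KO replicate 3.

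Among 11 partners of the sensors and related factors 2 rose, 2 fell and 7 were not called (edgeR). The called share of all tested genes was 46.1%. Creb3, an ER-bound transcription factor cleaved in the Golgi as ATF6 is, rose from a mean of 25.2 ± 1.22 CPM to 51.6 ± 9.69 (1.03 on the log2 scale, edgeR adjusted p = 0.00119; SD, n = 3), and exons of other genes cover 20.8% of its exonic bases. Tmbim6, an ER membrane protein that restrains IRE1, rose from 319 ± 17.5 to 622 ± 66.3 CPM (0.96, edgeR adjusted p = 0.0007). Creb3l2 (-0.90, adjusted p = 0.021) and Map3k5, the kinase ASK1 downstream of IRE1 (-0.83, adjusted p = 0.0151), fell. The number that fell was 0 without KO replicate 2 and 1 without KO replicate 3. The proteases that cleave ATF6, Mbtps1 (-0.11, adjusted p = 0.385) and Mbtps2 (0.10, adjusted p = 0.53), and Rtcb, the ligase that joins the spliced Xbp1 mRNA (-0.05, adjusted p = 0.77), were not called.

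The arm of the response under PERK runs through ATF4. Of its 8 genes 4 fell (Chac1, Trib3, Atf4 and Ppp1r15a) and 0 rose in edgeR and in DESeq2, with 2 higher at an unadjusted p under 0.05. A called share of 4 in 8 is near the 46.1% of all tested genes in either direction. By direction, 22.9% of all tested genes were called lower and 23.2% higher, whereas all 4 calls in this list were lower. The count of higher calls became 1 with the replicate block (Ppp1r15b) and 2 when only library size was used (Ppp1r15b and Nck1). Atf4 held 396, 455 and 309 CPM in control and 161, 133 and 138 CPM in KO (-1.43, adjusted p = 0.000401). Trib3 (-1.86, adjusted p = 0.00012) and Chac1 (-3.36, adjusted p = 0.000334) also fell, with Chac1 at 16.2 ± 1.21 and 1.55 ± 0.881 CPM (SD, n = 3, edgeR). Eif2ak3, which encodes PERK (-0.26, adjusted p = 0.101), and Ddit3, the factor CHOP (-0.31, adjusted p = 0.22), were not called.

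Chaperones of the cytosol, which are not part of the ER response, gave 2 genes lower, Hsp90ab1 (-0.92, edgeR adjusted p = 0.00336) and Hsp90aa1 (-0.55, adjusted p = 0.0255), 1 higher, the J-domain protein Dnaja1 (0.97, adjusted p = 0.00163), and 7 not called, with a median log2 fold change of -0.10. The cytosolic HSP90 genes and their ER relative Hsp90b1 were thus all lower, although 47.5% of the 50-base stretches of Hsp90aa1 occur in other transcripts. Of all tested genes 46.1% were called in either direction, the background for the counts of this list. Without control replicate 3 the counts were 4 lower and 3 higher, and without control replicate 1, control replicate 2, KO replicate 2 or KO replicate 3 only 1 gene was lower. Of 6 mRNAs that IRE1 degrades in other cells 3 were tested. Bloc1s1, the best known of them, held 1.0 ± 0.211 and 1.27 ± 0.197 CPM and was not called (edgeR adjusted p = 0.481), and 47.7% of its stretches are shared, mainly with Rdh5. Hgsnat (0.04, adjusted p = 0.899) was not called either, and the receptor gene Pdgfrb, under 1 CPM in both groups, was lower (-2.32, adjusted p = 0.00654).

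The genes whose profile over the 6 libraries was most like that of a member were found by the root mean square difference of centred log2 CPM among 8719 other genes whose mean reached 10 CPM. For Hspa5 these were Zdhhc18 (0.0448), Ptov1 (0.0526), Asxl1 (0.0579), Dnajc10 (0.0597) and Cd247 (0.0637). Sdf2l1 ranked 500 and Hsp90b1 ranked 3427 by the same measure, so the profiles of other members were less like that of Hspa5 than those of many genes outside the list. For Xbp1 the nearest were Gimap1 (0.0231), Sptbn1 (0.0377), Shkbp1 (0.0464), Tspyl2 (0.0466) and Nop53 (0.0478), and the nearest member was Atf6 at rank 672.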

How the data were processed

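The deposited values are raw whole-number counts per gene symbol, deposited by the authors without visible scaling or filtering. Per the submitters' processing notes, STAR, featureCounts, DESeq2 and the build mm10 were used, with no version, annotation or strand setting. Groups and replicate numbers come from the sample titles, and 0 columns lacked a sample.

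Genes were tested with edgeR 4.0.16 (R 4.3.3): TMM factors, filterByExpr by group, quasi-likelihood F-test, no covariate, Benjamini-Hochberg adjustment over 14268 genes, threshold 0.05. An SE is the absolute log2 fold change over the square root of F, and the 95% intervals are unadjusted. The code was tested on simulated data. The members, lists and tests were chosen with earlier results of these data known. List genes were named as the called ones with the largest changes at a mean of at least 10 CPM, and those that went against their list. Gene positions, lengths and shared 50-base stretches come from GENCODE M21 (GRCm38), promoters from RefSeq (GRCm38.p6). Values of some list genes are not reported here. Ero1l and Ero1lb are the table's symbols for Ero1a and Ero1b.

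Libraries with equal numbers deviated together (correlations across genes of 0.27, 0.13 and 0.38), although control replicate 2 was closer to KO replicate 1 (0.20). The numbers were therefore taken only as possible pairs, and the main fit left them out. Fits with the replicate block are given where they change the call of a member or a count of a list. Over all tested genes the block fit called 3857 higher and 3771 lower, against 3305 and 3269 in the main fit. Alternatives were upper-quartile factors, DESeq2 1.42.0 size factors, library size only, no filter, a mean count of at least 10, the DESeq2 test, the replicate block, each library left out, and replicates 1 and 2 only.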

Additional observations from a re-analysis of the deposited data

How the results depend on the processing

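The calls of Hsp90b1, Pdia4, Herpud1 and Dnajb9 held in each of the 14 alternative fits. Hspa5 became called with the replicate block (-0.33, edgeR adjusted p = 0.0345) and with the DESeq2 test (-0.34, adjusted p = 0.0483); leaving out 1 library gave -0.46 to -0.26, not called. The block changed the call of no other member; in the lists it moved lower calls from 9 to 11 among folding genes (higher calls from 3 to 4), from 2 to 3 among sensor partners (Nfyc, edgeR adjusted p = 0.0307) and from 2 to 3 among cytosolic chaperones (Hspa8, 0.0412). Sdf2l1 ran from -0.59 to -0.38 without 1 library. Members with a sign that turned were all uncalled: Xbp1 with replicates 1 and 2 only (0.0093), Ern1 with library size only (0.0435), replicates 1 and 2 only (0.0584), without control replicate 3 (0.0896) and without KO replicate 2 (0.0172), with a range of -0.254 to 0.0896 without 1 library, and Atf6 without control replicate 1 (-0.0076; range -0.0076 to 0.23). The cause was not tested.

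With 1 library left out, lower calls over all genes ranged from 2170 (without KO replicate 2) to 3700. Higher calls ranged from 0 to 4 among folding genes, 5 to 8 in degradation, 2 to 4 in translocation and 1 to 3 among cytosolic chaperones. Lower calls ranged from 1 to 5 in translocation, 0 to 3 among sensor partners and 1 to 4 among cytosolic chaperones. With replicates 1 and 2 only, 1 folding gene rose, 2 translocation genes rose and 2 fell, and 2 cytosolic chaperones rose. PERK arm genes called higher numbered 2 with library size only and 1 with the replicate block. No member had under 224 counts in a library; the effect of depth on the calls was not tested.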
